A study of Homo sapiens with 24 samples.

Results

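The peaks described here are 1443 Myc binding sites that lie at the end of a single protein-coding gene and were listed both at day 5 of doxycycline and without it. A peak of the day 5 list on chromosomes 1 to 22 or X was taken when it overlapped a peak of the list without doxycycline by at least 1 bp and reached within 1 kb of an end of exactly 1 protein-coding gene span of RefSeq (build hg38). Of 6718 day 5 peaks on these chromosomes, 2846 (42.4%) overlapped a peak of the other list, which held 3468. The 1443 made up 50.7% of these shared peaks (95% interval 48.8 to 52.6%) and 21.5% of the day 5 list. They named 1442 of 19974 coding genes (7.22%). The sites were chosen by the peak calls of both libraries, so their presence in both lists is the rule and not a result.

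The assay was CUT&Tag, where an antibody bound on chromatin directs a transposase to cut and tag the DNA nearby. MIA PaCa-2, a long-established line from a human carcinoma of the pancreas, had been given a MED30 gene under doxycycline control; MED30 is a subunit of Mediator. The 2 groups were the Myc library titled day 5 of doxycycline and the Myc library given no doxycycline, with 1 library each. Both carry the inducible construct; whether 1 clone was used was not given in the sources used here. Time follows the title's 5 days, although the treatment protocol of the samples gives 2 days. The other 22 of 24 samples, control IgG among them, were not analysed here, so some peaks may be background of the assay. With 1 library per condition, no test compares the conditions and no p-value is given.

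Myc is a transcription factor of the helix-loop-helix leucine zipper family that binds DNA as a dimer with Max. The dimer prefers the E-box CACGTG and is found at active promoters, many of which lack that word. Mediator carries signals from transcription factors to RNA polymerase II. Among the genes Myc is best known for are those of ribosome production, translation, nucleotide synthesis and glycolysis.

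The promoters of 6 genes with peaks near the top of both lists are shown, 4 that hold the E-box and 2 whose window holds no CANNTG at all, since both kinds bore strong peaks. Each run gives the 250 bases before the annotated gene start on the gene's own strand, from RefSeq GRCh38.p14, with CACGTG in capitals.
GOLIM4: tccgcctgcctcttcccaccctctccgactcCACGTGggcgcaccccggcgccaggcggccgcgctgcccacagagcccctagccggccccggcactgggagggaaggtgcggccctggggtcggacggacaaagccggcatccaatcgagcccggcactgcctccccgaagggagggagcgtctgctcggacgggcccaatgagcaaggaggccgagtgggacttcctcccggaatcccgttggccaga
CIC: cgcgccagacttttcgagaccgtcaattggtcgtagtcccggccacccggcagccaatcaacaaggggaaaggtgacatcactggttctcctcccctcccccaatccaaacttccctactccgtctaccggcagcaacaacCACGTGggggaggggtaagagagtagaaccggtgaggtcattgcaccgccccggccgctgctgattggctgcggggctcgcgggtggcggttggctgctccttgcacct
HSPA9: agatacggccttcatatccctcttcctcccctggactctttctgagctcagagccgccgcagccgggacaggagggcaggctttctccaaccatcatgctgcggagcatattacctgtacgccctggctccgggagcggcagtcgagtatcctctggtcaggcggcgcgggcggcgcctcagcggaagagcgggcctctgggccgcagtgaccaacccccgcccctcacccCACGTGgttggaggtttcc
PPAT: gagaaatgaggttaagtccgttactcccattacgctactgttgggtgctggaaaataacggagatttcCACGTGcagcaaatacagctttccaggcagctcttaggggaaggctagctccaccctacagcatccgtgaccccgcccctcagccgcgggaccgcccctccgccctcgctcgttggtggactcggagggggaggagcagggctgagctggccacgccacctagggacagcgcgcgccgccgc
SEH1L: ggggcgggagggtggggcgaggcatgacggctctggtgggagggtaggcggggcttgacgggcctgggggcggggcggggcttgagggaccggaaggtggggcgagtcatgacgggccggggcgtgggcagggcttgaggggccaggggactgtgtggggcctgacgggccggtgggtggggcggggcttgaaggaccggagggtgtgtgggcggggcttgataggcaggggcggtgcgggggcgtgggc
MSL2: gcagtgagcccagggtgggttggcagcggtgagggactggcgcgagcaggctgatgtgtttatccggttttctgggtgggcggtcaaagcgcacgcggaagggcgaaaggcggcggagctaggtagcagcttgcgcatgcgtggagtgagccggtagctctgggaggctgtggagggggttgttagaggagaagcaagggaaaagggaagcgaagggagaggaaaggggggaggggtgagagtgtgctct
GOLIM4, a Golgi membrane protein, has its window at chr3:168095925-168096174 on the minus strand, with the E-box starting 219 bases before the start. CIC, a repressor that MAP kinase signalling inactivates, has its window at chr19:42268280-42268529 on the plus strand, with the E-box starting 109 bases before the start. HSPA9, the mitochondrial chaperone mortalin, has its window at chr5:138575402-138575651 on the minus strand, and its E-box starts 19 bases before the start. PPAT, which catalyses the committed step of purine synthesis, has its window at chr4:56435616-56435865 on the minus strand, with the E-box starting 182 bases before the start. SEH1L, a nuclear pore subunit, has its window at chr18:12947761-12948010 on the plus strand, and MSL2, the ubiquitin ligase subunit of the MSL chromatin complex, has its window at chr3:136196336-136196585 on the minus strand. The MSL2 run does hold CACGCG, an E-box variant that CANNTG does not take in and that is counted below. At PPAT the E-box lay 31.5 bp from the day 5 summit and 50.5 bp from the summit without doxycycline, whereas at GOLIM4 it lay 128 bp from the day 5 summit and 126 bp from the other. At CIC it lay 306 bp from the day 5 summit and 286 bp from the other.

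The sites highest in both lists, taken by the poorer of their 2 ranks by −log10 q, lay at genes of varied function, from tRNA modification to the nuclear pore. The number of fragments over a summit was recovered from the fold and p-value that the authors' peak caller gave. ZNF131, a zinc finger regulator of transcription, had 117 fragments at its summit at day 5 (exact Poisson 95% interval 96.8 to 140.2), against 82 without doxycycline (65.2 to 102). Its peak spanned chr5:43120799-43121806 and ranked 5 by −log10 q in each list, of 6718 peaks at day 5 and 3468 without doxycycline. DUS3L, a tRNA dihydrouridine synthase, had 93 fragments at day 5 (75.1 to 114) and 83 without doxycycline (66.1 to 103). DUS3L ranked 7 at day 5 and 3 without doxycycline, and the intervals of its 2 libraries overlapped. GOLIM4 had 96 fragments at day 5 and 73 without doxycycline, with summits 2 bp apart. SEH1L had 95 at day 5 and 58 without doxycycline, and CIC had 86 at day 5 and 61 without doxycycline. HSPA9 had 57 fragments at day 5 and 54 without doxycycline. The next sites by the poorer of the 2 ranks were MSL2, UXT, a prefoldin-like protein, CD164, a sialomucin of the cell surface, and ITFG2, part of the KICSTOR complex that restrains mTORC1. ITFG2 had 52 fragments at day 5 and 44 without doxycycline. At each of these 10 genes the day 5 library had more fragments, by 1.06 times at HSPA9 to 1.64 times at SEH1L.

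Over all 1443 sites, the median was 17 fragments at day 5 (quartiles 12 and 24, range 4 to 117) and 11 without doxycycline (quartiles 8 and 16, range 3 to 83). The day 5 number was higher at 1207 sites, equal at 67 and lower at 169. The ratio of day 5 to no doxycycline had a median of 1.46, with quartiles of 1.17 and 1.85. The caller's local background moved with it: its median was 1.44 fragments at day 5 and 0.863 without doxycycline, a median ratio of 1.62. Sequencing depth and doxycycline cannot be told apart in these numbers. The remaining 1403 shared peaks had a median ratio of 1.38. Many sites rest on few fragments: 12.2% of sites had under 10 at day 5, and 36.5% had under 10 without doxycycline.

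**Figure D1:**
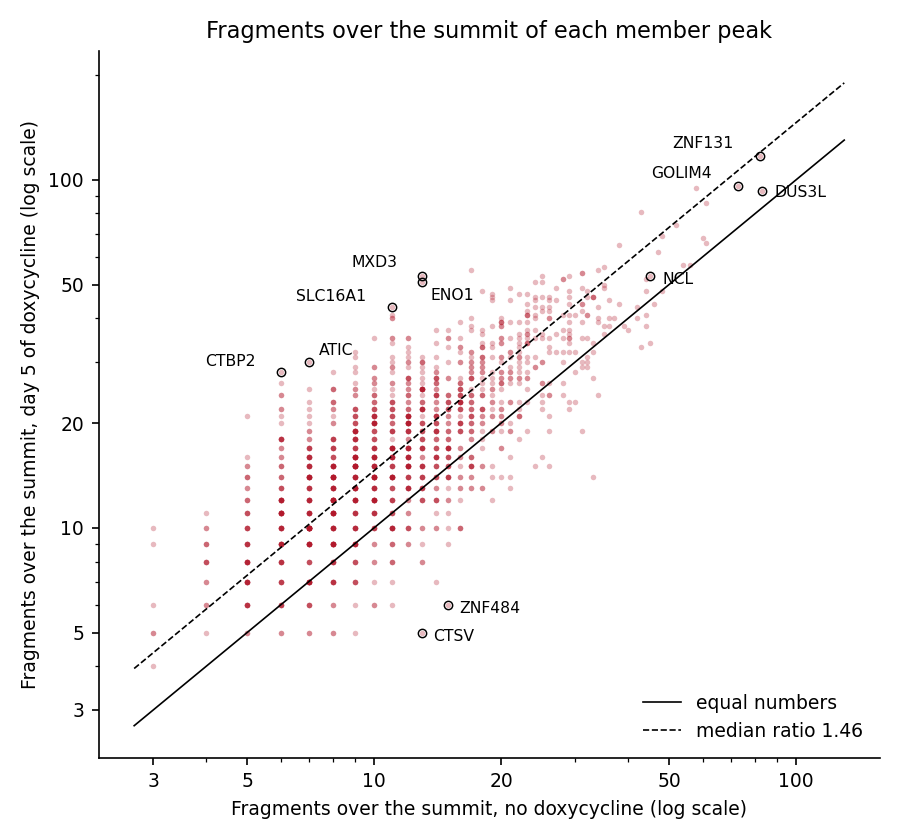
Fragments over the summit at day 5 (vertical axis, log scale) against no doxycycline (horizontal axis, log scale), 1 point per site, darker where sites coincide. Most points (1207 of 1443) lie above the line of equal numbers, the dashed line marks the median ratio of 1.46, and open circles mark genes named in the text.

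Sites kept their order between the libraries in part. Across the 1443 sites the rank correlation was 0.729 for summit fragments and 0.608 for −log10 q, as a description over sites that share libraries, depth and base composition. Of the 144 sites with the highest −log10 q at day 5, 83 (57.6%) were also among the 144 highest without doxycycline. Peak width was less alike, with a rank correlation of 0.42. Members were wider at day 5, with a median of 697 bp, against 527 bp without doxycycline. Single-end peaks listed only at day 5, of which there were 1926, had a median width of 520 bp and a median of 9 fragments. Being listed in both libraries selects for stronger peaks, so the lower values of the day 5 only peaks follow from the choice.

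Sites with the largest difference in rank by −log10 q among the members are given next. SLC16A1, a lactate transporter, had 43 fragments at day 5 (31.1 to 57.9), against 11 without doxycycline (5.49 to 19.7), and stood at rank 184 at day 5 and 1405 without doxycycline among the 1443 members. ATIC, which completes purine ring synthesis, had 30 fragments at day 5 (20.2 to 42.8) and 7 without doxycycline (2.81 to 14.4). CTBP2, a transcriptional co-repressor, had 28 at day 5 and 6 without doxycycline. ZBTB3, a zinc finger protein, had 26 at day 5 and 6 without doxycycline. The Poisson intervals of the 2 libraries, which take no account of depth, did not overlap at these 4 genes. In the opposite order stood CTSV, a cathepsin, with 5 fragments at day 5 (1.62 to 11.7) and 13 without doxycycline (6.92 to 22.2). ZNF484 had 6 at day 5 and 15 without doxycycline, and TRA2B, a splicing regulator, had 13 at day 5 and 18 without doxycycline. SPNS1, a lysosomal lipid transporter, had 7 at day 5 and 14 without doxycycline. The intervals overlapped at each of those 4. The caller's local background differed as well. At day 5 and without doxycycline in turn it was 5.41 and 2.35 at SLC16A1, 2.36 and 0.85 at ATIC, 2.17 and 0.67 at CTBP2, and 1.13 and 0.45 at ZBTB3. In the same order it was 0.34 and 0.55 at CTSV, 0.38 and 0.72 at ZNF484, 1.71 and 1.02 at TRA2B, and 0.68 and 0.85 at SPNS1. These 8 genes were picked for their difference in rank, so the differences are descriptions.

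Nearness to a gene end was set by the rule, and 840 of the 2846 shared peaks reached no coding end. Which end it was, and where the summit lay around it, the rule left free. The strand was known for 1240 sites, and at 1217 of these (98.1%, interval 97.2 to 98.8%) the day 5 summit was nearer the start than the far end of the gene. The summit lay within 250 bp of the nearest gene end at 54.1% of the 1443 sites at day 5 and at 50.5% without doxycycline, and the peak itself covered the end at 989 sites (68.5%). The median distance was 229 bp at day 5 and 250 bp without doxycycline. At day 5, 47.2% of the 1217 summits lay before the start, and without doxycycline 48.2%. Both summits were on the same side of the start at 85.7% of sites. Single-end peaks listed only at day 5 had 97.8% of summits nearer the start and a median distance of 227 bp.

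The positions formed a hump on each side of the start, with fewer summits between them. From 300 to 200 bp before the start lay 11% of summits at day 5 (9.31 to 12.9%) and 11.8% without doxycycline (9.99 to 13.7%). From 200 to 100 bp before the start, the share was 8.13% at day 5 (6.66 to 9.81%) and 5.83% without doxycycline (4.58 to 7.3%). In the first 100 bp of the gene, it was 13.1% at day 5 and 11.9% without doxycycline, and in the next 100 bp 12.2% at day 5 and 13.6% without doxycycline. The interval of the lowest bin between the humps lay below those of both neighbouring humps without doxycycline. At day 5 the interval of that bin overlapped that of the hump before the start and lay below those of the first 200 bp of the gene.

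**Figure D2:**
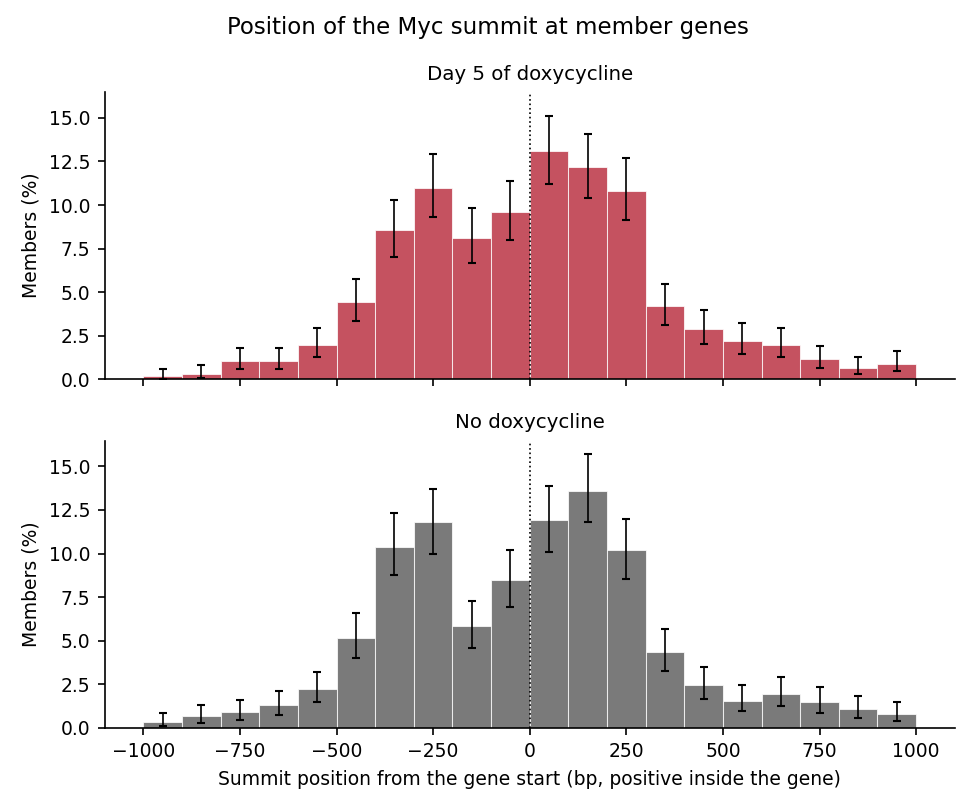
Share of members (vertical axis, %) by summit position from the gene start (horizontal axis, bp, bins of 100 bp), day 5 above and no doxycycline below, for 1217 sites, with exact 95% intervals as bars. Both panels show a hump before and a hump after the start, and the bin from 200 to 100 bp before the start is lower, at 8.13% at day 5 and 5.83% without doxycycline.

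The distance between paired summits is limited by the rule, since the peaks had to overlap and the overlapping peak of nearest summit was taken. Its median was 113 bp (quartiles 43 and 212), with 28.1% within 50 bp, 45.7% within 100 bp and 72.7% within 200 bp. EIF5A, a translation factor, and FARSB, the beta subunit of phenylalanyl-tRNA synthetase, had both summits at the same base. The largest distance was 1606 bp, at NR1D1, a nuclear receptor of the circadian clock, which also had the widest member at 2115 bp at day 5 against 683 bp without doxycycline. SLC16A1 followed with 2035 bp at day 5 and 530 bp without doxycycline, and TRIM41, a ubiquitin ligase, with 1971 bp at day 5 and 604 bp without doxycycline.

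A small set of 23 sites had the summit nearer the far end of the gene, and at 21 of them it lay over 1 kb from the start. PTPN6, a tyrosine phosphatase of blood cells, had 34 fragments at day 5 and 23 without doxycycline. AKNAD1 had 26 at day 5 and 25 without doxycycline. TTC7A, a scaffold of a phosphatidylinositol kinase, had 25 at day 5 and 19 without doxycycline. RNF40, which ubiquitinates histone H2B, had 25 at day 5 and 16 without doxycycline. At each of these 4 the summits of both libraries lay over 1 kb from the gene start.

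The E-box was commoner in the promoters of member genes than in coding promoters at large. CACGTG, which reads the same on both strands, was searched in windows from 250 bases before to 50 after the start, 1 window a gene. It was found in 194 of 1240 member windows (15.6%, interval 13.7 to 17.8%), against 8.82% of all 15813 coding windows and 6.88% of the 10900 windows of genes with no Myc peak at an end. Genes of single-end peaks listed only at day 5 held it in 10.7% of windows (9.18 to 12.3%), and genes of peaks listed only without doxycycline in 10.8% (7.28 to 15.2%), an interval that overlaps that of the members. Genes at shared peaks with 2 or more coding ends, at 16.5% (14.2 to 19%), were close to the members. Base composition differed too: median GC content was 64.3% in member windows, 66% in those of day 5 only peaks, 61% where no peak lay and 62.7% overall. The median number of CG pairs in a window, a pair that CACGTG itself holds, was 26 in member windows, 27 in those of day 5 only peaks, 18 where no peak lay and 22 overall. Peak strength differed as well, with a median of 17 fragments at day 5 for members and 9 for single-end peaks listed only at day 5. The parts of base composition and of peak strength in the E-box shares were not tested.

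When members were split into 4 equal groups by day 5 −log10 q, the E-box share was 19.2% (15 to 23.9%) in the highest group, then 15.8%, 12.7% and 14.7%, with overlapping intervals. In the groups below the highest the intervals were 11.9 to 20.4%, 9.19 to 17% and 10.9 to 19.2%. Each overlapped that of genes of single-end peaks listed only at day 5 (9.18 to 12.3%). Ordered by −log10 q without doxycycline, the shares were 18.7%, 15.9%, 15.7% and 12.2%, again with overlapping intervals. The longer word CCACGTGG was found in 5.57% of the highest day 5 group (3.34 to 8.66%), then 1.29%, 1.63% and 2.33%. It was in 4.05% of the highest group without doxycycline, 2.74% of all member windows and 1.04% of all coding windows. Genes at shared peaks with 2 or more coding ends held it in 3.18%. The other longer word searched, GTCACGTG or CACGTGAC, stood at 3.72% in the highest day 5 group (1.93 to 6.4%), then 5.16%, 4.89% and 5.33%. That word was in 4.36% of the highest group without doxycycline, 4.76% of all member windows and 3.45% of all coding windows. Genes at shared peaks with 2 or more coding ends held that word in 7.49%. Members with CACGTG had a median of 19 fragments at day 5 and 13 without doxycycline, and those lacking it had 17 at day 5 and 11 without doxycycline. Windows lacking the word bore strong peaks too, among them those of ZNF131, SEH1L and MSL2, where no CANNTG was found. The MSL2 window does hold the variant CACGCG.

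Other words were more or less frequent in member windows, counted on both strands. CANNTG takes in CACGTG and CAGCTG, and was found in 60.3% of member windows and 64.6% of all coding windows. CACGCG or its reverse CGCGTG, variants that Myc and Max can also bind, occurred in 23.5% of member windows (21.2 to 26%) and 14.8% of all coding windows. Genes of single-end peaks listed only at day 5 gave 19.8% (17.9 to 21.9%), and those of peaks listed only without doxycycline 21.5% (16.7 to 27%). Genes at shared peaks with 2 or more coding ends gave 21.1% (18.6 to 23.8%). Each of these intervals overlaps that of the members. CAGCTG, an E-box preferred by other helix-loop-helix factors, was found in 13.7% of member windows (11.8 to 15.8%) and 17.5% of all coding windows, with 15.3% for genes of day 5 only single-end peaks and 14.2% for those of peaks listed only without doxycycline. TATAAA or TTTATA, the core of the TATA box, was found in 5.4% of member windows and 9.75% of all coding windows. CCGGAAG or CTTCCGG, an ETS family word, stood at 20.6% against 14.1%, and GGGCGG or CCGCCC, a word of Sp family factors, at 71.5% against 58.3%. For these 3 the genes of single-end peaks listed only at day 5 gave 4.89%, 21.3% and 73.8%, each inside the interval of the members.

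**Figure D3:**
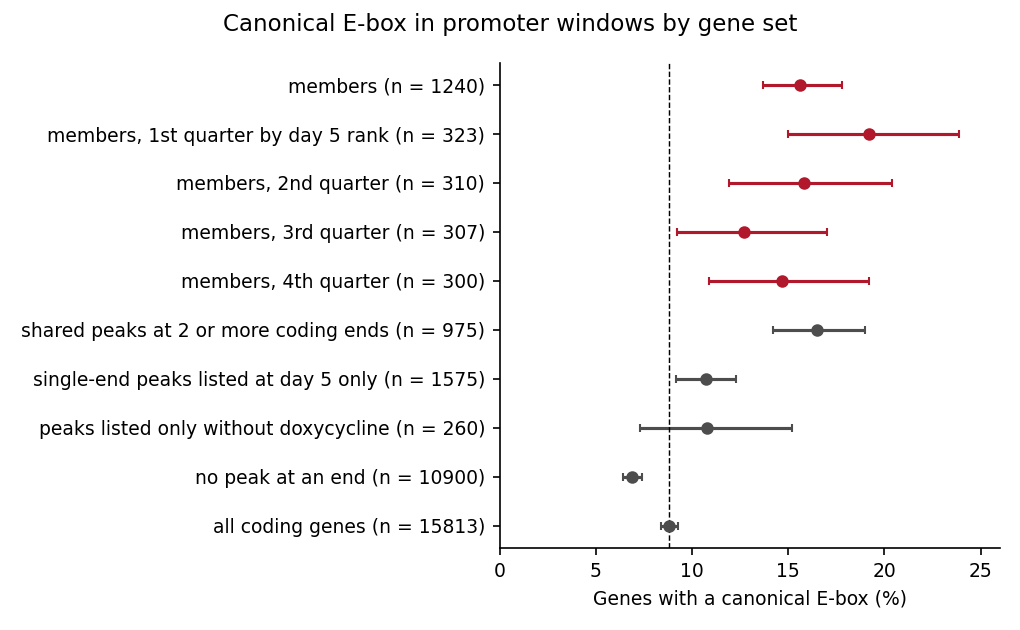
Share of genes with the canonical E-box in the promoter window (horizontal axis, %), by gene set, with exact 95% intervals and the share over all coding genes as a dashed line. Members (15.6%) and shared peaks at 2 or more ends (16.5%) lie to the right of peaks listed in 1 library (10.7 and 10.8%). The interval of peaks listed only without doxycycline (7.28 to 15.2%) overlaps those of members (13.7 to 17.8%) and of shared peaks at 2 or more ends (14.2 to 19%).

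At members with the E-box, the day 5 summit was more often close to it than the summit without doxycycline. The summit lay within 100 bp of the centre of a CACGTG at 65 of 194 sites at day 5 (33.5%, interval 26.9 to 40.6%), against 36 of the same 194 without doxycycline (18.6%, 13.3 to 24.8%), and at 22 sites in both libraries. CDK4, the kinase that drives cells out of G1, was such a site, with the E-box 31.5 bp from the day 5 summit and 24.5 bp from the summit without doxycycline. At IARS1, isoleucyl-tRNA synthetase, it lay 29.5 bp from the day 5 summit and 81.5 bp from the other. At GTF3C2, a subunit of the RNA polymerase III factor TFIIIC, it lay 16.5 bp from the day 5 summit and 81.5 bp from the other. At PSME3, a proteasome activator, the E-box lay 62.5 bp from the day 5 summit and 219.5 bp from the other, and at HSP90B1, a chaperone of the endoplasmic reticulum, 84.5 bp from the day 5 summit and 420.5 bp from the other. The reverse order was seen at several named sites, among them ATP5MC1, an ATP synthase subunit, with 208 bp at day 5 and 26.5 bp without doxycycline. At ATIC the E-box lay 154 bp from the day 5 summit and 29.5 bp from the other. At LSS, of the cholesterol synthesis list, it lay 508 bp from the day 5 summit and 30.5 bp from the other. At KMT2D, of the pancreatic cancer driver list, it lay 206 bp from the day 5 summit and 33.5 bp from the other. Among the 134 of these sites with at least 10 fragments in both libraries, the shares were 32.8% at day 5 (25 to 41.5%) and 21.6% without doxycycline (15 to 29.6%), with overlapping intervals. That subset, like the measure itself, was chosen after seeing the data. For CACGCG or CGCGTG the shares over all sites with the word were 27.7% at day 5 and 24.7% without doxycycline, and for CAGCTG 20.6% at day 5 and 18.8% without doxycycline. For CCAAT or ATTGG they were 22.5% at day 5 and 19.8% without doxycycline, and for CCGGAAG or CTTCCGG 27.3% at day 5 and 25.8% without doxycycline, with overlapping intervals in each case. Within the day 5 library, the E-box interval overlapped those of CACGCG or CGCGTG (22.7 to 33.3%), CAGCTG (14.8 to 27.5%) and CCGGAAG or CTTCCGG (22 to 33.2%). It lay above that of CCAAT or ATTGG (19 to 26.4%). Without doxycycline the E-box share was the smallest of these words. All of these shares come from 1 library each, and the part of depth in where a summit is placed was not tested.

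**Figure D4:**
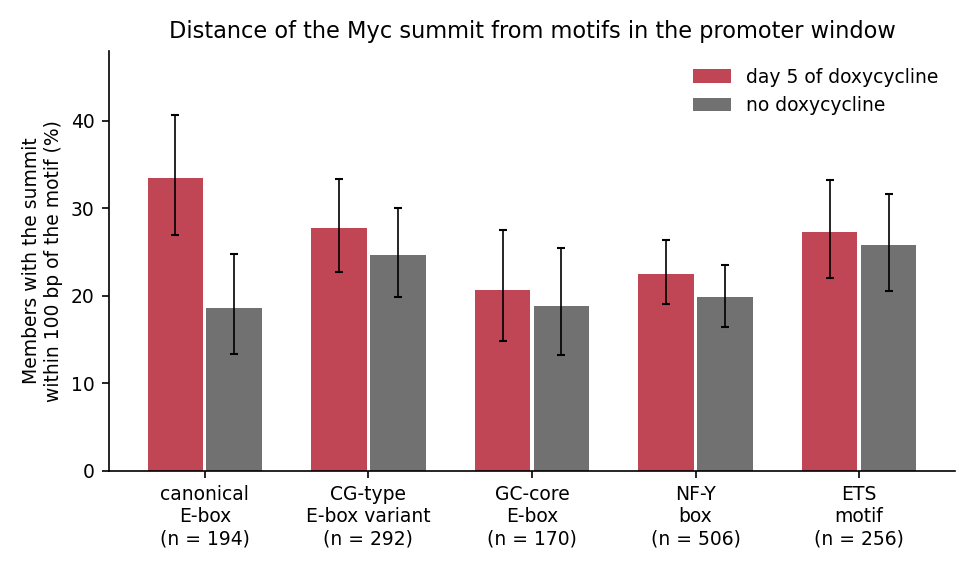
Share of members whose summit lay within 100 bp of a motif in the promoter window (vertical axis, %), day 5 beside no doxycycline, for the canonical E-box, its CG-type variant, the GC-core E-box preferred by other factors, the NF-Y box and the ETS motif, with exact 95% intervals. The bars differ most for the canonical E-box, at 33.5% at day 5 and 18.6% without doxycycline.

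Groups that Myc is known to bind were among those with the largest shares of member genes. Of 38 gene lists, 30 had a larger share of member genes than the 7.22% of all coding genes, and for 19 the exact interval lay above it. The rule leaves out peaks that reach 2 or more coding genes, so each list's count of genes with any shared peak at an end is larger or equal. Of all 19974 coding genes, 1442 had a member and a further 1128 lay at shared peaks with 2 or more coding ends. Counts of any shared peak are to be read beside both numbers and not beside 7.22%. These lists overlap, were drawn up with earlier results of these data known, and come with no test.

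The largest share was that of cytosolic ribosomal proteins, followed by purine and pyrimidine synthesis and by nuclear pore and transport. Of 87 cytosolic ribosomal protein genes, matched by symbol, 32 (36.8%, interval 26.7 to 47.8%) had a member, with a median of 21 fragments at day 5 and 16 without doxycycline. RPS14 had 43 fragments at day 5 and 42 without doxycycline, and RPS19 had 41 at day 5 and 32 without doxycycline, both being proteins of the small subunit. RPL7L1, which is a paralogue of a large subunit protein, had 37 at day 5 and 29 without doxycycline. Counting any shared peak at a gene end, with those at 2 or more coding genes, 43 of the 87 had one. Mitochondrial ribosomal proteins had members at 7 of 77 (9.09%), an interval that did not overlap that of the cytosolic ones, but 20 of 77 had any shared peak at an end. MRPL48 was among the sites with more fragments without doxycycline, with 37 at day 5 and 40 without. Ribosome biogenesis genes had members at 25 of 111 (22.5%), among them NCL, the nucleolar protein nucleolin, with 53 fragments at day 5 and 45 without doxycycline. DKC1, the pseudouridine synthase of the nucleolus, had 53 at day 5 and 25 without doxycycline, and DDX21, a nucleolar helicase, had 48 in each library.

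Genes with symbols of translation factors had members at 20 of 69 (29%), led by EIF5A with 66 fragments at day 5 and 61 without doxycycline. The 20 take in regulators and related proteins too, among them EIF2AK3, also in the stress response list, EEF1AKMT1, EEF1E1 and EIF4EBP3. EIF4EBP1, matched to that list by its name, is an inhibitor of the cap-binding factor and had 47 at day 5 and 22 without doxycycline. Aminoacyl-tRNA synthetases had members at 10 of 39 genes (25.6%), with TARS1, threonyl-tRNA synthetase, at 52 fragments at day 5 and 28 without doxycycline. RNA polymerase III machinery had 6 of 22 (27.3%), and its subunit gene POLR3D had 52 fragments at day 5 and 28 without doxycycline. RNA polymerase II and general factors had members at 8 of 104 (7.69%), and 22 of 104 had any shared peak at an end. Mediator, the complex that MED30 belongs to and whose genes are also in that list, had members at MED11 and MED21 only, 2 of 33 (6.06%, 0.743 to 20.2%). MED11 had 36 fragments at day 5 and 35 without doxycycline, and MED21 had 8 at day 5 and 4 without doxycycline.

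Nuclear pore and transport genes had members at 20 of 66 (30.3%, 19.6 to 42.9%), with a median of 22 fragments at day 5 and 12.5 without doxycycline. After SEH1L came IPO13, an importin, with 39 fragments at day 5 and 20 without doxycycline. Spliceosome and RNA-binding genes had 23 of 120 (19.2%), led by SRSF6, a splicing factor, with 44 at day 5 and 23 without doxycycline. Proteasome subunits had 11 of 50 (22%), with PSME3 at 29 fragments at day 5 and 9 without doxycycline. Mitochondrial import and chaperone genes also had 11 of 50, and 24 of 50 had any shared peak at an end. The respiratory chain had members at 11 of 127 (8.66%), and 29 of 127 had any shared peak at an end. UQCR11, a subunit of complex III, had 38 fragments at day 5 and 44 without doxycycline.

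Purine and pyrimidine synthesis had members at 13 of 40 genes (32.5%, 18.6 to 49.1%), with a median of 23 fragments at day 5 and 15 without doxycycline. CTPS1, CTP synthase, had 56 fragments at day 5 and 35 without doxycycline, and PPAT had 62 at day 5 and 47 without doxycycline. APRT, of purine salvage, had 65 at day 5 and 38 without doxycycline. Glycolysis had members at 6 of 23 genes (26.1%), with a median of 23.5 fragments at day 5 and 12 without doxycycline. ENO1, enolase, had 51 at day 5 (38 to 67.1) and 13 without doxycycline (6.92 to 22.2). HK2, hexokinase, had 28 at day 5 and 8 without doxycycline, a ratio of 3.5, whereas ALDOA, aldolase, had 19 in each library. The caller's local background was 3.01 at day 5 and 1.14 without doxycycline at HK2, and 2.55 at day 5 and 1.76 without doxycycline at ALDOA. Of the one-carbon genes, MTHFD2, the mitochondrial folate enzyme, had 43 at day 5 and 25 without doxycycline. CYP51A1, a demethylase of cholesterol synthesis, had 30 at day 5 and 23 without doxycycline.

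Myc's own network was among the lists, at 9 of 31 genes (29%, 14.2 to 48%), with a median of 30 fragments at day 5 and 13 without doxycycline. MXD3, a Max partner that opposes Myc, had 53 at day 5 (39.7 to 69.3) and 13 without doxycycline (6.92 to 22.2). ACTL6A, an actin-related chromatin remodelling subunit, had 35 at day 5 and 12 without doxycycline. MXD1, another Max partner that opposes Myc, had 34 at day 5 and 20 without doxycycline. MGA, a Max partner of repressive complexes, had 25 at day 5 and 13 without doxycycline. MYC and MAX, singled out here as the antibody's target and its partner after their values were seen, were members too. MYC, at chr8:127735178-127736089, had 27 fragments at day 5 and 12 without doxycycline, and MAX had 25 at day 5 and 13 without doxycycline. The ratio of day 5 to no doxycycline was 4.08 at MXD3 and 3.92 at ENO1, beside the median of 1.46 over all sites and the upper quartile of 1.85. The caller's local background was higher at day 5 at both sites too. It was 3.92 fragments at day 5 and 1.45 without doxycycline at MXD3, and 4.90 at day 5 and 2.02 without doxycycline at ENO1. The part of the background in these ratios was not tested.

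Cell cycle, stress, growth signalling and clock genes gave further sites. EGR1, an immediate early transcription factor, had 26 fragments at day 5 and 14 without doxycycline, and its list of AP-1, EGR and MAP kinase feedback genes had 7 of 39 (17.9%). CDK4 had 23 fragments at day 5 and 13 without doxycycline, and cell cycle and replication genes had 10 of 71 (14.1%). Their interval, 6.97 to 24.4%, includes the 7.22% of all coding genes. The p53 pathway list had 9 of 34 (26.5%), with PLK3, a stress kinase, at 41 fragments at day 5 and 29 without doxycycline. Genes of protein folding stress and the integrated stress response had 9 of 31 (29%), where HERPUD1, of protein degradation at the endoplasmic reticulum, had 44 fragments at day 5 and 38 without doxycycline. PER3 and CRY1 were among 6 of 24 clock genes (25%). PER3 had 35 at day 5 and 15 without doxycycline, whereas CRY1 had 17 at day 5 and 20 without doxycycline. Both are repressors of the clock's E-box activators. Many clock promoters are known for E-boxes, and of PER3, NR1D1, BHLHE40 and CRY1, BHLHE40 held CACGTG in its window.

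Zinc finger ZNF genes, which mostly encode DNA-binding proteins, had members at 66 of 517 (12.8%, 10 to 16%), with 12.4% on chromosome 19, where many are clustered, and 13.1% on other chromosomes. Counting any shared peak at an end, 80 of 517 had one. Other coding genes of chromosome 19 had members at 8.99% (7.43 to 10.8%), an interval that overlapped that of the ZNF genes there (8.58 to 17.1%). ZNF146 had 49 fragments at day 5 and 35 without doxycycline, and ZNF460 had 46 at day 5 and 33 without doxycycline. Chromosome 7 had the largest share of coding genes with a member (9.81%, 7.98 to 11.9%), and chromosome 4 the smallest (2.73%, 1.7 to 4.14%). Chromosomes 15 (3.73%), 8 (4.48%) and 22 (4.66%) were also low. Day 5 peaks of all kinds were fewer there too: chromosome 4 had 153 beside 770 coding genes, and chromosome 7 had 419 beside 938.

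Olfactory receptor genes and keratin and skin barrier genes were the lists whose intervals lay below 7.22%. None of 390 olfactory receptor genes (an upper bound of 0.941%) and none of 183 keratin and skin barrier genes (an upper bound of 2%) had a member. For smaller lists of cell type markers the intervals include 7.22%, so their counts do not differ from it detectably. Acinar and endocrine pancreas markers had 0 of 30 (an upper bound of 11.6%), neuron markers 0 of 20 (an upper bound of 16.8%) and leukocyte markers 1 of 23 (0.11 to 21.9%), CD8A, with 12 fragments at day 5 and 8 without doxycycline. Replication-dependent histones, made by all dividing cells, had 1 of 70 (0.0362 to 7.7%), H4C15, with 9 fragments at day 5 and 8 without doxycycline.

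**Figure D5:**
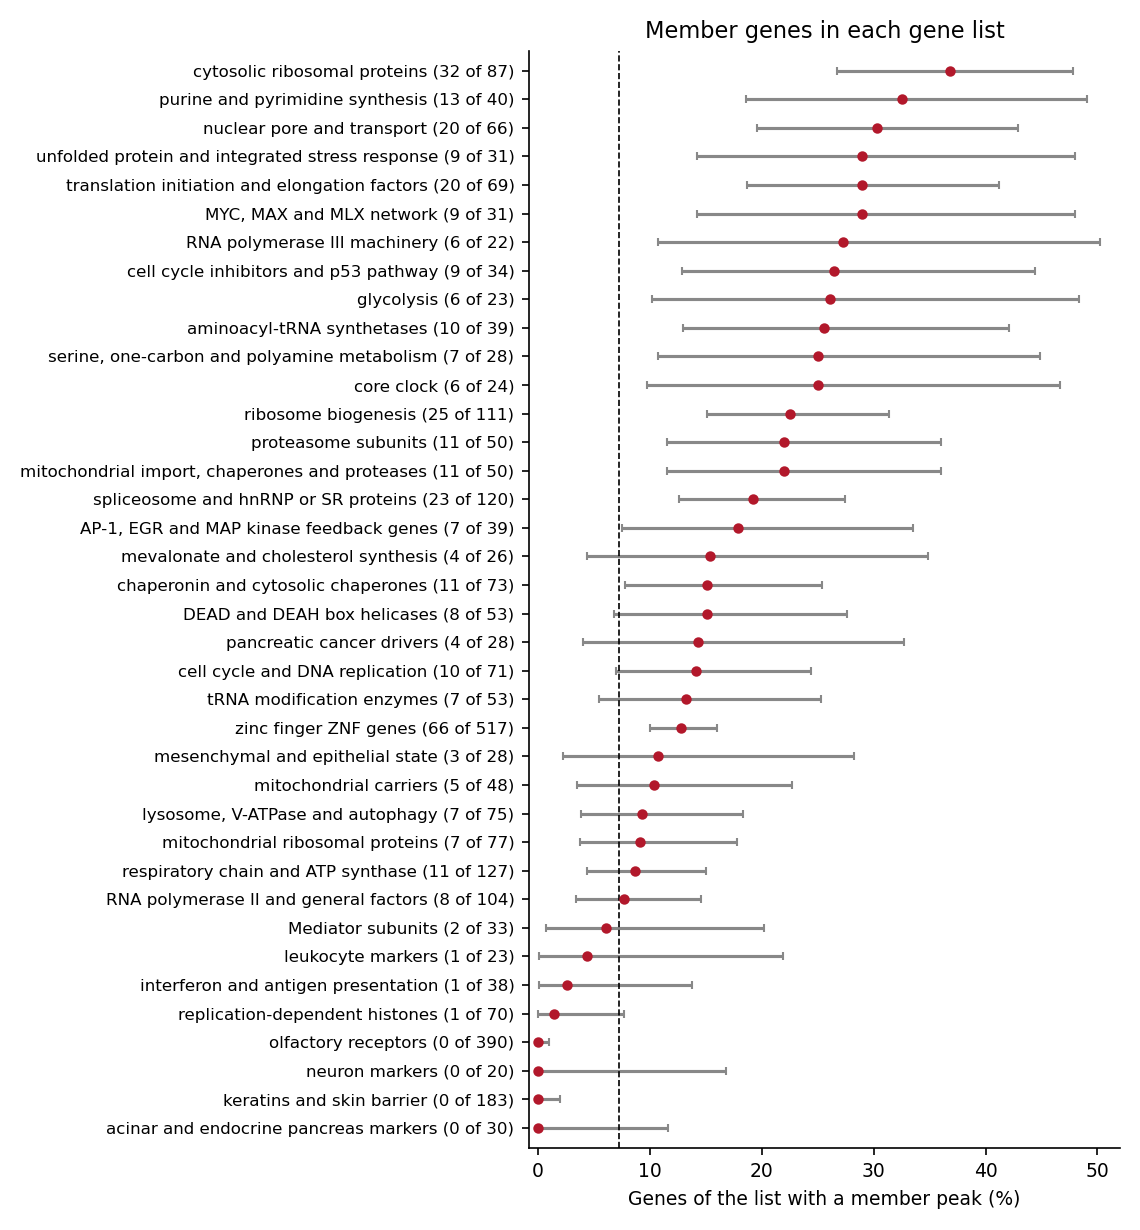
Share of each gene list with a member (horizontal axis, %), with exact 95% intervals, counts in the labels and the share over all coding genes (7.22%) as a dashed line. Cytosolic ribosomal proteins (36.8%) and purine and pyrimidine synthesis (32.5%) stand at the top, and olfactory receptors and keratins at 0.

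Members also reached an end of a non-coding gene at 471 sites (32.6%, 30.2 to 35.1%), against 584 of the 1926 single-end peaks listed only at day 5 (30.3%, 28.3 to 32.4%), with overlapping intervals. Long non-coding RNAs accounted for 411 members. Where a member reached the start of such a gene with both strands known, the strands were opposite at 315 of 325 (96.9%). This share was not computed for other peaks or for coding promoters at large, so it is not read as a trait of the members. Of the 411 members reaching any end of a long non-coding RNA gene, whatever its strand, 4 ranked highest by day 5 −log10 q. These were UXT with UXT-AS1, ITFG2 with ITFG2-AS1, DDX11 with DDX11-AS1 and ENSA with LOC112268239. Small RNA genes were fewer, with 19 members at microRNA genes, 17 at tRNA genes, 14 at snoRNA genes and 4 at snRNA genes. The site at ZBTB37, with 41 fragments at day 5 and 32 without doxycycline, also reached GAS5, a host gene of snoRNAs. The site at RPL32 reached SNORA7A, that at RACK1 reached SNORD95, and that at POLR3D reached MIR320A. NPM1, the nucleolar protein nucleophosmin, shared its site with MIR3912 and had 45 fragments at day 5 and 24 without doxycycline.

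At the edges of the rule, the members nearest the 1 kb limit were ESRP2 at 994 bp and CCDC102A at 989 bp, and the peaks just outside it lay 1008 bp from ABHD15 and 1018 bp from KLLN. The smallest overlaps were 9 bp at ZNF776, with 4 fragments at day 5 and 3 without doxycycline, and 14 bp at PPT1, with 8 at day 5 and 7 without doxycycline. At RBL2 and HEXIM1 the peaks of the 2 lists missed each other by 4 and 12 bp.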

How the data were processed

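Myc CUT&Tag peak lists of 2 libraries were used, 1 per condition, grouped by title. The tools named per the submitters' processing notes were MACS2, Bowtie2, Trim Galore and deepTools, with build hg38. Not given in the sources used here are versions, settings and any IgG control in peak calling. Each list deposited by the authors has 10 columns, among them a score, a fold (the ratio of summit to local background), and −log10 p-values and −log10 q-values at the summit. Ranks are by −log10 q within a list. Per the labels, cells were lightly fixed with formaldehyde.

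Whole fragments n over background b were recovered from fold = (n + 1)/(b + 1) and a Poisson tail, within 0.001 in −log10 p, for 100% of the 6718 and 3468 peaks. Total read depth is not in the lists. As a check of the code, random fragment numbers and backgrounds were put through the same formula, and 100% of 6482 and 3321 were recovered. Of the lists, only their lengths were used. Peaks planted at isolated gene ends were found as members for 100% of 200. By its construction, this check cannot show whether the formula fits the authors' peak caller.

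Each day 5 peak was paired with the overlapping peak of nearest summit. Gene spans, strands and windows came from RefSeq GRCh38.p14, with 1 window per gene, the one nearest the span end, for 15813 coding genes. The start was the span end in 87.2% of these. Strand and sequence were not used for 203 members, 32 of them on chromosome 8. Intervals are exact (Clopper-Pearson or Poisson, 95%) and cover counting error only, since PCR duplicates cannot be seen and peaks and genes are not replicates. Members and gene lists were chosen with earlier results of these data known. Of the listed symbols, 1 had no match.

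Named genes were, by rule, the 10 best by the poorer rank, the 4 with the largest rank difference each way, the 3 widest, genes with several sites, up to 4 per list, the 4 highest ranked at far ends and at lncRNA, snoRNA and microRNA genes, and the sites nearest each limit. The text gives a selection, and MYC and MAX in addition; some named sites are not reported here. Alternatives were reciprocal overlap of 50%, summits within 500 bp, the upper part of each list, windows of 500 and 2500 bp, genes of any kind, counting from the other list, adding chromosome Y, shorter windows and other words. Python 3.11.15, pandas 2.3.3, SciPy 1.17.1 and matplotlib 3.10.9 were used.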

Additional observations from a re-analysis of the deposited data

Results flagged for a closer look

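Some signal lay outside the chromosomes used. The day 5 list held 235 Myc peaks on contigs, chromosome Y and the mitochondrial genome, and the list without doxycycline held 91, and these entered no comparison. Of the 235 at day 5, 66 overlapped a peak of the other list.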

How the results depend on the processing

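Of 53 values recomputed under alternatives, 37 stayed within the main value's 95% interval or, for counts, within 1.5 times it, among them all 11 under reciprocal overlap and all 4 with summits within 500 bp. Keeping the upper part of each list by −log10 q gave 753 members at 753 genes, 52.9% of shared peaks, 208 listed genes, a summit distance of 91 bp, 22 fragments at day 5 and 16 without doxycycline, and a rank correlation of 0.543, from fewer and stronger peaks by construction. Members were 34.2% of shared peaks when genes of any kind were counted, and 50.9% of summits lay within 250 bp of an end with a window of 2500 bp. The E-box share was 8.39% in 100 bases before to 50 after the start and 36.2% when CACGCG and CGCGTG were added, as shorter windows or more words imply. With limits chosen after seeing the data, the summit lay within 50 bp of CACGTG at 18% of sites at day 5 and 11.3% without doxycycline, and within 150 bp at 41.8% and 30.4%, in the same order. The window nearest the day 5 summit, also added then, gave 16.8%. No paired analysis was possible because each condition has 1 library and no result comes from a test. Low fragment numbers limit single sites most, above all without doxycycline.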
